A study of Mus musculus with 2 samples.

Results

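The genes described here are Drosha and Dgcr8, which encode the Microprocessor, and 3 mRNAs that earlier work reported as direct cleavage substrates of Drosha, those of Neurog2, Nfib and Myl9. The rule names the genes and uses no measured value, though earlier results of these data were known when they were chosen. All 5 gene symbols were found, 1 row each, among 43629 gene rows in both count files. Polyadenylated RNA was sequenced from untreated mouse embryonic stem (ES) cells with the genotype Drosha knockout, on the strain background 129/Ola, at passage 7, grown in serum with the cytokine LIF, which keeps mouse ES cells undifferentiated. The knockout was made with a pair of CRISPR/Cas9 cuts according to the series title. The group holds 2 libraries, called A and B, and every value below comes from knockout cells, because no library of another genotype was analysed here. A level in these cells therefore does not say whether the gene differs from normal ES cells. The titles give A and B different cell numbers but the source names give both the same one, so it is not known whether they are separate lines, separate cultures or repeat preparations, and their spread may be technical.

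Microprocessor is a nuclear complex of the RNase III enzyme Drosha and the double-stranded RNA binding protein Dgcr8. It recognises hairpins in long primary transcripts and cuts them at the base, which releases the precursors of most microRNAs. The same complex can cut hairpins that fold within mRNAs, and the mRNA of its own subunit Dgcr8 is the best known case. Such cleavage was also reported for the mRNA of Neurog2, a basic helix-loop-helix factor that starts neurogenesis, in mouse neural progenitors. It was reported for the mRNA of Nfib, a nuclear factor I transcription factor that promotes glial fates, in mouse hippocampal neural stem cells. For the mRNA of Myl9, a regulatory light chain of non-muscle and smooth muscle myosin, it was reported in mouse blood progenitors.

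The Dgcr8 mRNA carries 2 annotated microRNA hairpins. The sequence of the mir-1306 hairpin is shown because RefSeq lists it with mature microRNAs. Whether Microprocessor cuts it was not tested here. The mir-1306 hairpin is on the minus strand at chr16:18284239-18284317 (GRCm38.p6, RefSeq). In the hairpin the capitals mark the mature arms, and in the mature microRNAs they mark the seed, bases 2 to 8, which pairs with targets.
mir-1306 hairpin: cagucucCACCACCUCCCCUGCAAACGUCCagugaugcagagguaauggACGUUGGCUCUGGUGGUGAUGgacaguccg
mmu-miR-1306-5p: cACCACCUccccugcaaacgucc
mmu-miR-1306-3p: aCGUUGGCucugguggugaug
The 5p and 3p arms have different seeds. The hairpin is 79 bases long, and its predicted lowest-energy fold has 23 base pairs that involve 46 of these bases, with a free energy of -29.8 kcal/mol. It matches exactly bases 524 to 602 of the 4320-base Dgcr8 mRNA, all of them in exon 2 and all in the coding sequence, which runs from base 425 to base 2743 without the stop codon. The second hairpin, annotated as Gm24572, has 88 bases and lies at bases 204 to 291, wholly in the 5′ untranslated region and also in exon 2. Both annotated hairpins thus sit in the exon that holds the start codon.

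**Figure D1:**
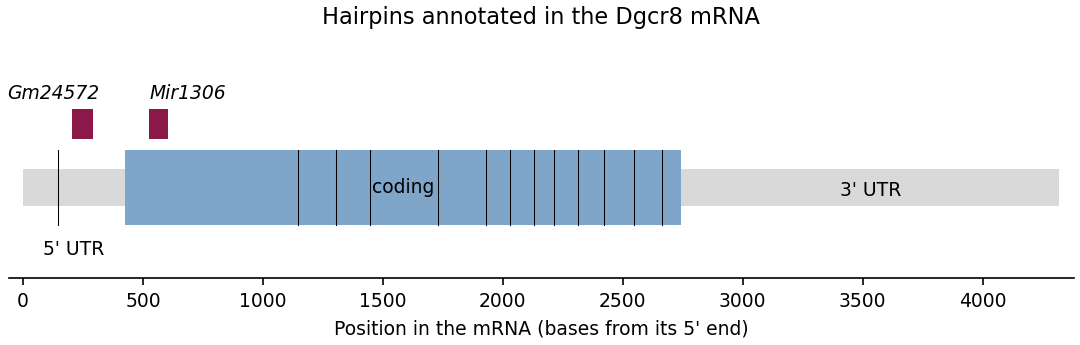
Map of the Dgcr8 mRNA in bases from its 5′ end, with the coding sequence as a tall bar, the untranslated regions (UTR) as a low bar, exon borders as thin lines and both annotated microRNA hairpins as blocks above. Gm24572 ends at base 291, before the coding sequence begins at base 425, and Mir1306 lies inside the coding sequence at bases 524 to 602.

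The hairpin genes themselves had no assigned reads: Mir1306 and Gm24572 had 0 reads in A and 0 in B, while Dgcr8 had 7004 and 10329. A read that covers a hairpin also covers a Dgcr8 exon, and the treatment of reads that fall on several genes during counting was not given in the sources used here. Of 123 annotated hairpins that lie inside a same-strand exon of a protein-coding gene at 1 count or more per 1000000 counts of the library (CPM), 12 had any read (9.76%). Of 1526 hairpins that overlap no exon of another gene in the files, 342 had a read (22.4%). The 0 at both Dgcr8 hairpins therefore does not show whether the uncut hairpin was present.

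Library A held 29264632 gene counts and library B 42322129. CPM here are counts divided by library sizes scaled with the trimmed mean of M-values (TMM), and the ranges given with them are exact Poisson 95% intervals. With 0 reads a gene could still have had the level of 3 counts, which is 0.102 CPM in A and 0.0711 CPM in B. Intervals and floors cover counting error only, since the reads carry no molecular identifiers. All 8 ES cell markers examined were at 1 CPM or more in both libraries, led by Dppa5a at 10136 ± 263, Pou5f1 at 1399 ± 33.0 and Zfp42 at 892 ± 5.27 TPM (SD, n = 2), and the lowest were Nanog at 613 ± 7.73, Esrrb at 289.9 ± 4.68 and Klf4 at 135 ± 6.06 TPM, so the markers of the labelled cell type were present. Of the 8, Dppa5a and Tdgf1 were called between the libraries, both higher in B, and Tdgf1 was not called once a trend with GC content was removed (adjusted p = 0.249, exact binomial test). Of all genes tested, 1.30% were called higher in B. TPM are counts per kilobase of annotated exon, scaled to the same sum in each library, and serve here to compare genes.

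Drosha RNA was plentiful in cells labelled as Drosha knockout. Drosha (ENSMUSG00000022191, chromosome 15, bases 12824815 to 12935291, plus strand, GRCm38) had 4865 reads in A and 7023 in B. These are 165.8 CPM (161 to 171) in A and 166 CPM (162 to 170.3) in B. The intervals overlap almost wholly, and the mean was 166 ± 0.378 CPM (SD, n = 2). Its coding transcript has 35 exons and 4570 bases, of which 4119 are coding and 171 lie in the 3′ untranslated region. The files give 1 count for the whole gene, so they do not show whether the exons targeted by the CRISPR cuts were read, and the label of the knockout cannot be checked from them.

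Dgcr8, the RNA-binding partner, stood higher than Drosha in both libraries. Dgcr8 (ENSMUSG00000022718, chromosome 16, bases 18253948 to 18289246, minus strand) had 239 CPM (233 to 244) in A and 245 CPM (240 to 249) in B, with a mean of 242 ± 4.20 CPM (SD, n = 2). Per length of annotated exon, Dgcr8 had 83.3 TPM in A and 84.3 TPM in B, and Drosha had 75.0 and 74.3 TPM. The ratio of Dgcr8 to Drosha was 1.11 in A and 1.13 in B (1.12 ± 0.0169, SD, n = 2). It was 1.52 in A and 1.56 in B when the length of the longest transcript was used, because the annotated exons of Dgcr8 sum to 7696 bases and its longest transcript has 4320. The direction was the same with both lengths, while the size of the difference depends on the transcript model.

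Part of the Dgcr8 count is uncertain. On the opposite strand the tRNA methyltransferase gene Trmt2a overlaps 825 of its exon bases (10.7%), and Trmt2a had 1556 reads in A and 2122 in B. The protein-coding gene Gm49776, on the same strand and not analysed here, shares 327 exon bases of Dgcr8 (4.25%). Whether Dgcr8 would stay above Drosha per length without reads from these overlaps was not tested. Of 4271 windows of 50 bases along the Dgcr8 mRNA, 348 (8.15%) occur in a transcript of another gene, but only 69 of them in genes of the count files, all in Mir1306 and Gm24572. For Drosha 23 of 4521 windows (0.509%) do, all in the annotated hairpin Gm47288, which was not analysed here.

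Neurog2 RNA was not distinguishable from none. Neurog2 (ENSMUSG00000027967, chromosome 3, bases 127633135 to 127635631, plus strand) had 1 read in A and 0 in B. The single read in A corresponds to 0.0341 CPM, with an interval from 0.000863 to 0.190 CPM, and the floor in B is 0.0711 CPM. Both libraries were thus below 1 CPM, and any difference between the libraries could not be detected at this depth. None of the 2178 windows of 50 bases along its mRNA occurs in a transcript of another gene.

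The related neurogenins were also near the floor. Neurog1, which specifies sensory neurons, had 5 reads in A and 8 in B, and Neurog3, which specifies pancreatic endocrine cells, had 11 and 5. In TPM they stood at 0.271 in A and 0.298 in B for Neurog1, and at 0.601 in A and 0.188 in B for Neurog3. Neither Neurog1 nor Neurog3 was called different between the libraries (adjusted p = 1.00 for Neurog1 and 0.357 for Neurog3, exact binomial test, Benjamini-Hochberg method over all genes). With so few reads a difference can go uncalled, as for Neurog3, whose ratio of A to B was 3.17. Of all genes tested, 2.29% were called. None of the 3 neurogenins reached 1 CPM in either library.

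Of a wider list of 17 factors that act with neurogenins in neurogenesis, 11 reached 1 CPM in both libraries. Among 17124 protein-coding genes with a read, 12458 did, so this count does not set the list apart. The highest were the ubiquitous dimer partner Tcf3 at 99.7 ± 10.04 TPM and the inhibitors Id1 at 67.1 ± 5.20 and Id3 at 54.3 ± 3.37 TPM (SD, n = 2). Tcf3 was the single call of this list, with a ratio of A to B of 1.14 (adjusted p = 1.24e-08, exact binomial test, Benjamini-Hochberg method). The Tcf3 call was kept with the GC trend removed. It was lost under the exact test of edgeR, given a coefficient of variation of 0.1. Of all genes tested, 0.989% were called higher in A. At the low end, Neurod2 and Neurod6 had 0 reads in A and 1 in B each. Neurod1, a neuronal differentiation factor named after its value was seen, had 438 reads in A against 684 in B (14.7 and 15.7 TPM). Of 8 markers of neural progenitors and young neurons 4 reached 1 CPM in both libraries, with a list median of 0.541 TPM. The neuronal marker Tubb3 was at 109 ± 3.08, Nes at 11.1 ± 0.471 and Sox1 at 1.55 ± 0.05002 TPM (SD, n = 2). Dcx had no read, and Fabp7 had 1 read in A and 0 in B. The cells thus held RNA of partners and inhibitors of neurogenins, with next to none of Neurog2.

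Nfib RNA was present at a modest level. Nfib (ENSMUSG00000008575, chromosome 4, bases 82290173 to 82705750, minus strand) had 480 reads in A and 620 in B. These are 16.4 CPM (14.9 to 17.9) in A and 14.7 CPM (13.6 to 15.9) in B, and the intervals overlap. The mean was 15.5 ± 1.18 CPM (SD, n = 2). Its annotated exons sum to 14957 bases, so the level per length was only 2.94 TPM in A and 2.60 TPM in B. Its mRNA is long because of its 3′ end: in the chosen coding transcript of 8770 bases the 3′ untranslated region takes 6512 (74.3%), against 499 of 1128 (44.2%) in Myl9, 1114 of 2227 (50.02%) in Neurog2, 1577 of 4320 (36.5%) in Dgcr8 and 171 of 4570 (3.74%) in Drosha.

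Of the 4 nuclear factor I genes, Nfib and Nfic carried nearly all reads. Nfic, which is involved in tooth root formation, was the highest, with 10.2 TPM in A and 9.23 TPM in B. Nfix had 20 reads in A and 20 in B, and Nfia, which works with Nfib in glial development, had 7 and 6. Nfix was at 0.249 TPM in A and 0.171 TPM in B, and Nfia at 0.0588 and 0.0346 TPM. Nfib was thus above Nfix and Nfia and below Nfic in both libraries. In end-to-end alignments of coding sequences, Nfib matched Nfia at 55.9% of positions, Nfic at 48.5% and Nfix at 55.1%, with gaps counted as positions. The coding sequences differ in length, with 1710 bases in Nfib, 1527 in Nfia, 1284 in Nfic and 1482 in Nfix. Gaps therefore lower these shares, which do not rank the paralogs by likeness to Nfib. The longest exact run that the Nfib mRNA had in common with any of them was 21 bases. The antisense gene Gm11266, in the span of Nfib but outside its exons, had 3 reads in A and 1 in B, and the other 4 annotated genes in that span (n-R5s188, Gm11267, Gm11268 and Gm11269) had 0.

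Myl9 RNA was low in reads and of middle rank per length. Myl9 (ENSMUSG00000067818, chromosome 2, bases 156775420 to 156781658, plus strand) had 104 reads in A and 131 in B. These are 3.54 CPM (2.896 to 4.295) in A and 3.10 CPM (2.59 to 3.68) in B, with a mean of 3.32 ± 0.312 CPM (SD, n = 2). Because its annotated exons hold only 1162 bases, these counts make 8.19 TPM in A and 7.08 TPM in B. Nfib has more reads than Myl9 and Myl9 has the higher TPM, in both libraries.

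Several related myosin light chains were more abundant than Myl9. Myl12a and Myl12b, the other non-muscle regulatory light chains, had 180 ± 6.43 and 147 ± 2.999 TPM (SD, n = 2). The skeletal muscle light chain Mylpf had 310 ± 4.32 TPM, with 3566 reads in A and 5299 in B, and was the highest of the 7 family members. The atrial form Myl7 stood at 22.9 ± 1.47 TPM, the ventricular form Myl2 at 1.39 ± 0.309 and Myl10 at 0.230 ± 0.104 TPM. None of the 6 tested family members was called different between the libraries, beside 2.29% of all genes tested.

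The coding sequence of Myl9 resembles those of Myl12a (85.7% of alignment positions, gaps included) and Myl12b (86.4%). The stretch they share most closely is therefore shown to give the scale of possible mix-ups of reads. It is the longest run that the Myl9 mRNA (chromosome 2, plus strand) shares with either, from base 67 to base 101 of the coding sequence, and it is the same run in all 3 genes.
Myl9, Myl12a and Myl12b shared run: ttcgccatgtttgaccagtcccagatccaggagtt
This run has 35 bases, and none of the 1079 windows of 50 bases along the Myl9 mRNA occurs in a transcript of another gene. The same holds for the 8721 windows of Nfib. A read of at least 50 bases without mismatches from these transcripts would thus match no annotated transcript of another gene. Only the sense sequences of annotated transcripts were searched, and not the genome. For Nfib the chosen transcript has 8770 bases while the annotated exons sum to 14957, and the rest was not searched. Whether reads were placed in Myl9 or Nfib alone is therefore not shown. Read length and mismatch handling were not given in the sources used here.

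**Figure D2:**
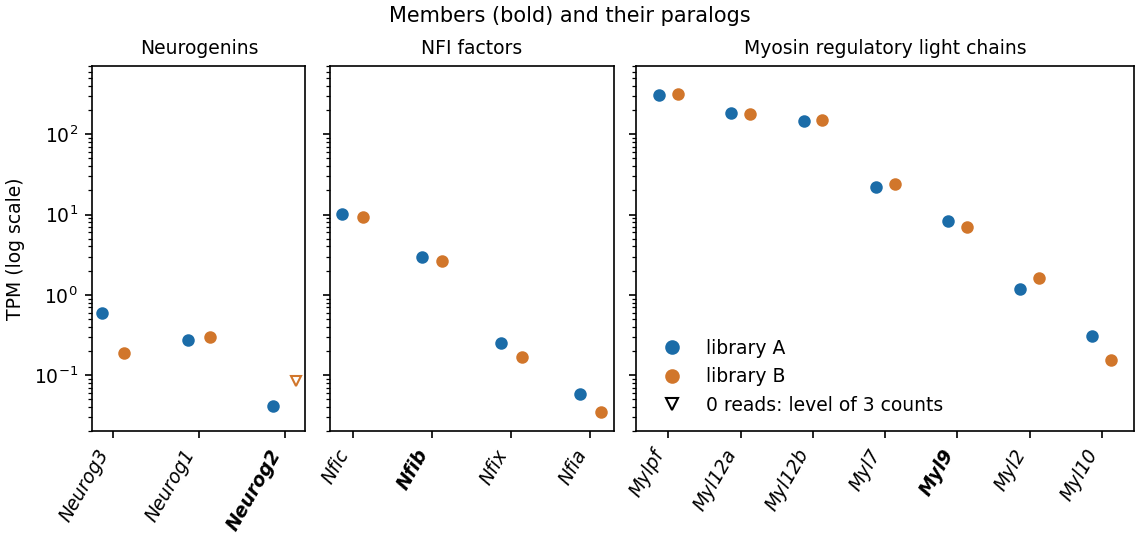
TPM (log scale) of the 3 reported substrate genes, in bold, and of their paralogs in library A and library B, each point 1 library, with an open triangle at the level of 3 counts for the 0 reads of Neurog2 in B. Nfib lies below Nfic, Myl9 lies below 4 of the 6 other regulatory light chains, and the neurogenins are all below 1 TPM.

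Further partners of Myl9 in non-muscle contractility were present: 10 of 11 listed genes reached 1 CPM in both libraries, with a list median of 24.99 TPM. The highest were the GTPase Rhoa at 152 ± 0.638, the phosphatase subunit Ppp1cb at 89.0 ± 2.301 and the essential light chain Myl6 at 78.2 ± 1.29 TPM (SD, n = 2). The lowest were the kinase Rock1 at 10.8 ± 0.0567, the light chain Myl6b at 6.39 ± 0.345 and the smooth muscle light chain kinase Mylk at 0.202 ± 0.00167 TPM. Only Ppp1cb was called between the libraries, higher in B, with 0.952 times as much in A (adjusted p = 0.00874, exact binomial test, Benjamini-Hochberg method), and the call was lost with the GC trend removed (adjusted p = 0.791). The median level of protein-coding genes with a read was 7.77 TPM, and 12458 of these 17124 genes reached 1 CPM in both libraries. Of all genes tested, 1.30% were called higher in B.

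Set against the 17124 protein-coding genes with at least 1 read, the members fell into 3 ranges of mean TPM. Dgcr8 was at percentile 90.5 with 83.8 ± 0.717 TPM and Drosha at percentile 89.1 with 74.7 ± 0.488 TPM (SD, n = 2). Myl9 was at percentile 49.8 with 7.64 ± 0.785 TPM and Nfib at percentile 37.4 with 2.77 ± 0.236 TPM. Neurog2 was at percentile 4.01 with 0.0205 ± 0.0291 TPM, a rank that rests on 1 read, since it was at percentile 7.51 in A and 0 in B. The order Dgcr8, Drosha, Myl9, Nfib, Neurog2 was the same in A and in B, and each gap between neighbours was larger than the SDs of both. These SDs hold the spread of the 2 libraries only and not the choice of scale or length. In CPM, Nfib ranked above Myl9 (percentile 52.4 against 35.7).

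**Figure D3:**
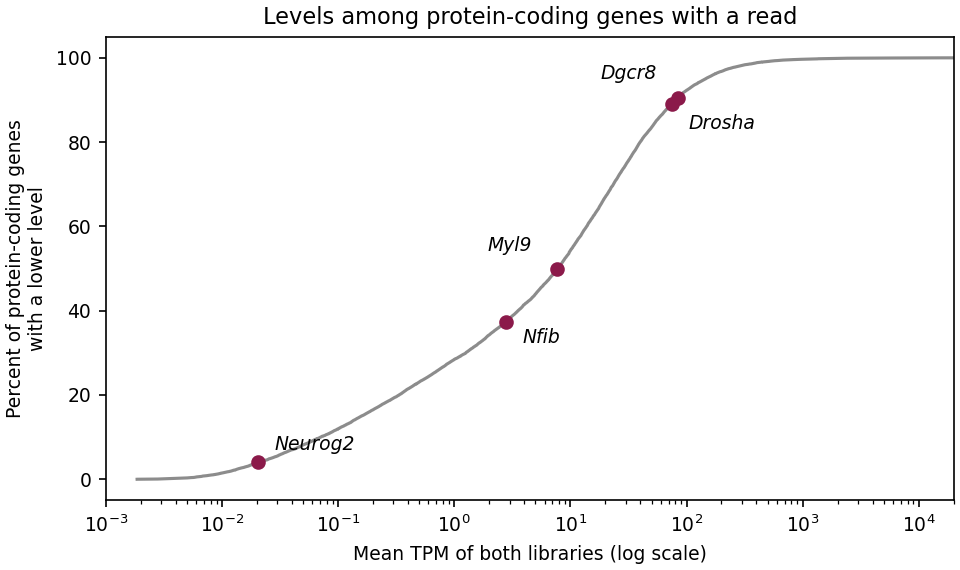
Share of the 17124 protein-coding genes with a read that have a lower mean TPM (vertical axis, percent) against mean TPM of both libraries (log scale), as a grey line, with the 5 members as points. Dgcr8 and Drosha sit together near 90.5 and 89.1%, Myl9 and Nfib in the middle at 49.8 and 37.4%, and Neurog2 at 4.01%.

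**Figure D4:**
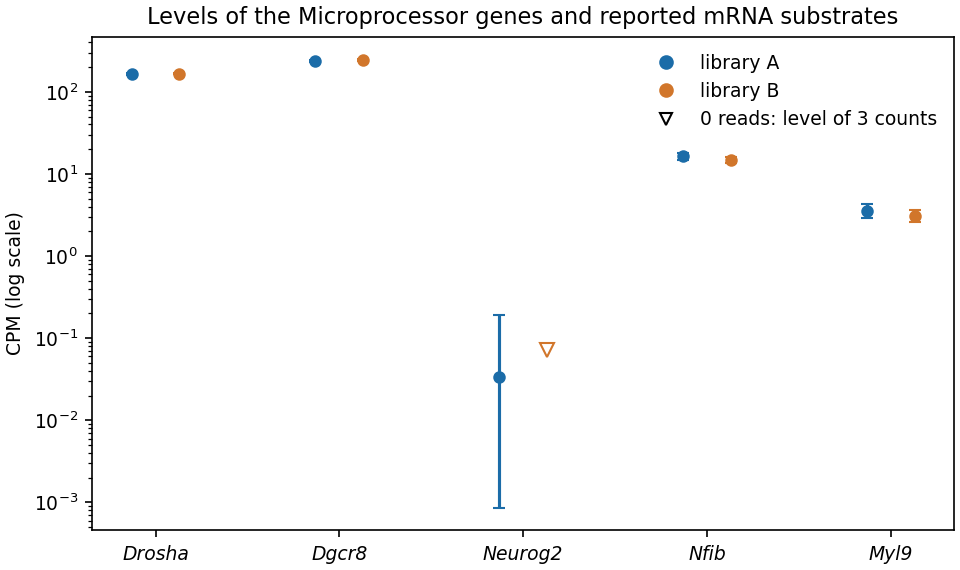
CPM (log scale) of the 5 members in library A and library B, with exact Poisson 95% intervals, and an open triangle at the level of 3 counts where a library had 0 reads. The libraries lie close together for Drosha, Dgcr8, Nfib and Myl9, and the Neurog2 interval in A spans 0.000863 to 0.190 CPM.

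The 2 libraries were then compared with each other, gene by gene, against counting error. None of the 4 members with at least 10 reads was called by an exact binomial test of the reads, with p-values adjusted by the Benjamini-Hochberg method over all 18198 genes tested, and Neurog2 had too few reads to be tested. Across all tested genes 2.29% were called, of which 0.989% were higher in A and 1.30% higher in B. With library totals in place of TMM, 242 genes were called higher in A and 180 higher in B, against 180 and 237 with TMM. At an unadjusted p under 0.05 the count of members was also 0, beside 12.4% of all genes tested. The exact test of edgeR, given a coefficient of variation of 0.1, called 0 members but also only 1 gene in all (0.0055%), so its 0 says little about the members. The test compares these libraries and not conditions, and it holds no estimate of the spread between cultures.

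The intervals of the ratios cover counting error only and do not bound how far a member can have differed. Over the 18198 genes tested, the reads gave a chi-square of 37788 against the scaled library sizes. Counting error alone would give a value near 18198, so the libraries differed by more than that. The ratio of A to B was 0.997 for Drosha (95% interval 0.961 to 1.03) and 0.976 for Dgcr8 (0.946 to 1.01). Both Microprocessor genes thus had narrow intervals that include 1. The ratio was 1.11 for Nfib (0.987 to 1.26) and 1.14 for Myl9 (0.874 to 1.49), wider because these genes had 1100 and 235 reads in all. The adjusted p-values of the exact binomial test were 0.999 for Drosha, 0.558 for Dgcr8, 0.490 for Nfib and 0.784 for Myl9. For Drosha the sign of the log2 ratio depended on the scaling, at -0.0046 with TMM and 0.0027 with library totals.

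**Figure D5:**
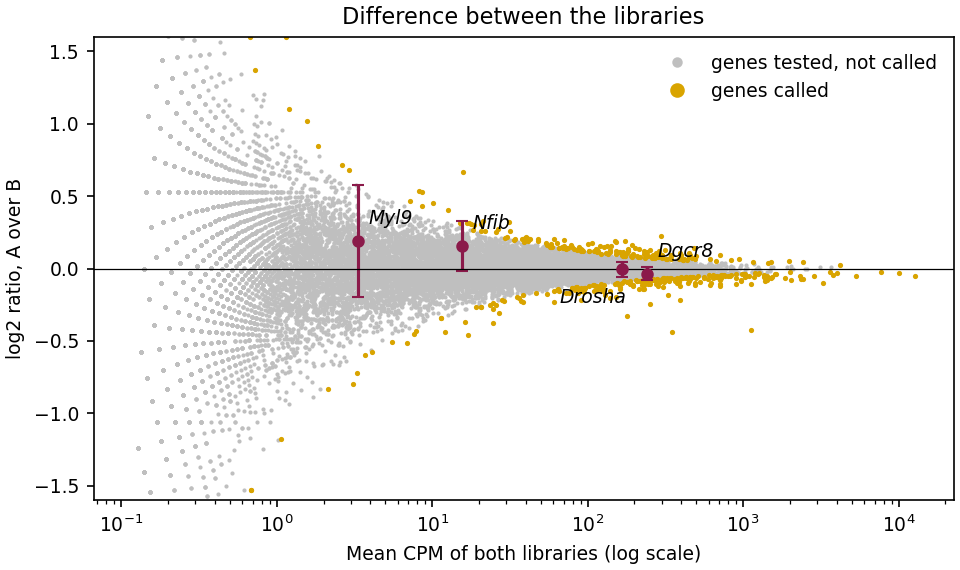
Log2 ratio of library A over library B against mean CPM of both libraries (log scale) for the genes tested, in grey, or yellow where called, and for the 4 tested members with 95% intervals for counting error; the vertical axis ends at 1.6 in both directions, and 142 genes beyond it are not drawn. The intervals of Drosha, Dgcr8, Nfib and Myl9 all include 0.

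Markers of cells that can accompany ES cells or that use Myl9 and Nfib were examined beside these ratios. Of 12 markers of feeder fibroblasts none was at 0 reads and 6 reached 1 CPM in both libraries (10 in A alone). Among 17124 protein-coding genes with a read, 12458 reached 1 CPM in both. Of the 11 markers tested 4 were called, all higher in A, beside 0.989% of all genes tested. These 4 were Col3a1 with 47 reads in A and 14 in B, Dcn with 51 and 24, Col1a2 with 36 and 16, and Postn with 22 and 8. Of them Col3a1 alone stayed called under the exact test of edgeR, given a coefficient of variation of 0.1. The list summed to 112.5 CPM in A and 107 CPM in B, and its median log2 ratio was 0.33, beside 0.00084 over all genes tested. Its highest members were Thy1 at 38.6 ± 0.107, Mmp2 at 17.9 ± 0.121 and Col5a1 at 7.00 ± 0.193 TPM (SD, n = 2), and the lowest was Lum, with 5 reads in A and 3 in B. The part of such cells in the Nfib and Myl9 reads was not tested, and in bulk RNA fewer cells of a type and less RNA per cell cannot be told apart.

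Of 6 smooth muscle markers none was at 0 reads and 0 were called, beside 2.29% of all genes tested. The list summed to 57.2 CPM in A and 56.7 CPM in B. Smtn was the highest at 19.8 ± 0.847 TPM, followed by Des at 11.05 ± 0.0698 and Tagln at 4.998 ± 0.752, and the contractile genes Cnn1, Acta2 and Myh11 had 3.61 ± 0.334, 1.47 ± 0.0700 and 0.0880 ± 0.0393 TPM (SD, n = 2). The log2 ratio also moved with GC content of the transcripts. Genes with a GC content like that of Nfib (43.3%) had a median log2 ratio of -0.029, and genes like Myl9 (56.6%) had 0.040. With that trend removed, the log2 ratio was 0.19 for Nfib (unadjusted p = 0.0367, adjusted p = 0.518, exact binomial test) and 0.15 for Myl9. Nfib was then the 1 member at an unadjusted p under 0.05, beside 8.75% of all genes tested.

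Other genes of the microRNA pathway were expressed beside Drosha and Dgcr8. All 20 listed cofactors of primary microRNA processing reached 1 CPM in both libraries, beside 12458 of 17124 protein-coding genes with a read. The list median was 124 TPM. The RNA helicases Ddx5 and Ddx17 and the hairpin binding protein Hnrnpa1 led at 463 ± 3.51, 209.7 ± 2.21 and 267 ± 5.25 TPM (SD, n = 2), and the let-7 inhibitor Lin28b was the lowest at 7.77 ± 0.322 TPM, below the RNA editing enzyme Adar at 21.4 ± 0.165 and Safb2 at 24.4 ± 1.93 TPM. Of these 20 genes 1 was called higher in A and 1 higher in B, beside 0.989% and 1.30% of all genes tested. The call higher in A was the RNA-binding protein gene Safb2, with a ratio of A to B of 1.10 (adjusted p = 0.0224, exact binomial test, Benjamini-Hochberg method), lost with the GC trend removed (adjusted p = 0.521).

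Of 12 genes that act after Microprocessor, 11 reached 1 CPM in both libraries, beside 12458 of 17124 protein-coding genes with a read. Of the 12, 1 was called, higher in B, beside 1.30% of all genes tested. The list median was 28.7 TPM, so both Microprocessor subunits lay above that median. The export GTPase Ran had 605 ± 8.56, the slicing Argonaute Ago2 had 82.7 ± 0.693 and the precursor exporter Xpo5 had 63.8 ± 0.889 TPM (SD, n = 2). At the low end were the silencing scaffold Tnrc6b at 13.1 ± 0.0440 and the Argonautes Ago3 at 3.97 ± 0.323 and Ago4 at 0.382 ± 0.0930 TPM. Dicer1, the RNase III enzyme of the second cut and named here for comparison with Drosha after its value was seen, had 30.5 TPM in A and 30.0 TPM in B. Ran was the single call of this list, with a ratio of A to B of 0.968 (adjusted p = 0.0447, exact binomial test, Benjamini-Hochberg method), lost with library totals (adjusted p = 0.127), with genes of a single read included (0.0608) and with the GC trend removed (0.362).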

How the data were processed

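Polyadenylated RNA was measured in 2 libraries of 1 group, Drosha knockout ES cells. The authors deposited raw read counts per Ensembl gene, 1 file for each library, per the file headers. The tools STAR 2.4.2a and featureCounts 1.4.5-p1 and the build mm10 appear in the submitters' processing notes, with no settings, and the protocol was reverse-stranded per the labels. Annotation, strand setting, read length and multimapping were not given in the sources used here. Symbols, positions, exon lengths and transcripts came from GENCODE M21 (GRCm38, the same assembly as mm10), and 97.5% of gene IDs matched. MicroRNA sequences are from RefSeq (GRCm38.p6).

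Counts were scaled by TMM on genes with at least 10 reads (edgeR 4.0.16, R 4.3.3). With 1 library on each side, genes with at least 10 reads over both entered a two-sided exact binomial test. Benjamini-Hochberg adjustment was over all genes, with a threshold of 0.05. The test was also tested on simulated data, which held counting error only and so lacked the wider spread of these libraries. Log2 ratios are of A over B with 0.5 reads added. The coding transcript of a gene is the longest with a consensus coding sequence (CCDS) tag; GC content is that of the longest transcript. Alignments, folding and figures used RNAfold 2.7.2 and, in Python 3.11.15, scipy 1.17.1, Biopython 1.88, matplotlib 3.10.9, pandas 2.3.3 and numpy 2.4.6. Alternatives were library totals and DESeq2 1.42.0 size factors, read filters of 1 and 50, the exact test of edgeR, thresholds of 0.5 and 5 CPM or 1 TPM, other length and gene choices for percentiles, and each library alone. The removal of the GC trend (20 bins, genes with at least 100 reads) was added after the data were seen.

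The members, lists and rules were chosen with earlier results of these data known. Named genes are the members, genes overlapping them, their short families, and of each other list the 3 highest and 3 lowest by TPM and every called gene, except for items that are not reported here.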

Additional observations from a re-analysis of the deposited data

How the results depend on the processing

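No member was called under any alternative, and the 24 log2 ratios of tested members under alternatives kept their side of the threshold. The count of all called genes was 417, 1 under the exact test of edgeR, given a coefficient of variation of 0.1, which allows more spread by construction, and 144 with the GC trend removed, for which the cause was not tested. Of 11 calls in the lists, 1 was kept under the exact test of edgeR (Col3a1) and 7 with the GC trend removed. Mean CPM of each member moved by less than the SD under library totals and DESeq2 size factors. These scalings raise 1 library as they lower the other, so the mean over both hardly moves by construction. With 1 library left out CPM ranged from 165.8 to 166.4 for Drosha, 239 to 245 for Dgcr8, 14.7 to 16.4 for Nfib, 3.10 to 3.54 for Myl9 and 0 to 0.0341 for Neurog2, and the Drosha percentile from 89.03 to 89.1. Percentiles depended on the scale. In CPM they were 93.0 for Drosha, 95.9 for Dgcr8, 52.4 for Nfib and 35.7 for Myl9, so Nfib and Myl9 changed places because CPM ignores length. With longest transcripts they were 88.6, 93.1, 39.9 and 46.2, and among protein-coding genes at 1 TPM or more 84.7, 86.7, 12.5 and 29.9, in the same order of genes. For Neurog2 the percentile was 0 to 7.51 with 1 library left out. Of 60 list counts 56 stayed within 1.5 times; at 5 CPM the regulatory light chains fell to 3, smooth muscle to 2 and neural markers to 2, and fibroblast markers were 10 in A alone. No paired analysis was possible because there is 1 group. Depth limits Neurog2, at 1 read in all, and a difference between libraries in Myl9, at 235 reads.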
